A study of Mus musculus with 24 samples.

Results

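The genes described here are 10 mouse genes that respond to or restrain FGF and ERK signalling: Spry1, Spry2, Spry4, Spred1, Spred2, Il17rd, Dusp4, Dusp6, Etv4 and Etv5. They were chosen by name, with earlier results of these data known, and all 10 were found among the 21883 protein-coding genes of the mouse gene table. The study used ChIP-seq to map H3K9ac, the acetylation of lysine 9 on histone H3 that marks active promoters, in embryoid bodies at day 5, the aggregates in which embryonic stem cells differentiate. The cells were of the C57BL/6 strain. The genotypes were Gcn5-/- (null; clones 4_C2 and 6_C4) and Gcn5fx/fx, homozygous for the floxed allele (fx/fx; clones 4_1 and 6_1). The product of Kat2a, Gcn5 adds acetyl groups to histones. Isolate pair 6 joins null 6_C4 with fx/fx 6_1, and isolate pair 4 joins null 4_C2 with fx/fx 4_1. Each clone gave 2 H3K9ac libraries, so each genotype rests on 2 clones and 4 libraries. The question put by the design is how H3K9ac is distributed once Gcn5 is lost. Of the 24 samples, the 16 of input DNA and of total H3 were left out.

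FGF ligands act through receptor tyrosine kinases, adaptors and Ras to activate the kinase cascade that ends in ERK, and ERK signalling is needed when mouse embryonic stem cells leave the pluripotent state. ERK activity in turn switches on genes whose products limit it. Sprouty and Spred proteins act between the receptor and Raf, Il17rd (Sef) is a transmembrane antagonist of FGF signalling, and Dusp4 and Dusp6 remove the activating phosphates from MAP kinases. Etv4 and Etv5 are ETS transcription factors whose transcription is commonly read as a sign of FGF activity.

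The promoters of 4 of these genes are shown as examples of full and of partial coverage by peaks. At Spry2 and Dusp6 every base lay inside a peak in all 8 libraries, as it also did at Spry1, Spred1 and Spred2, which are not shown. At Il17rd and Etv5 some libraries covered the start only in part. The sequences are from RefSeq on GRCm38.p6, which has the same primary chromosome sequences as mm10, the build of the peaks, and they run from 250 bases before a listed start to 50 bases after it. Capitals mark bases inside a peak in all 8 libraries. A listed promoter was found for 7 of the 10 genes, with 2 for Etv5 and none for Spry4, Dusp4 and Etv4.
Spry2, chr14:105896770-105897069, minus strand: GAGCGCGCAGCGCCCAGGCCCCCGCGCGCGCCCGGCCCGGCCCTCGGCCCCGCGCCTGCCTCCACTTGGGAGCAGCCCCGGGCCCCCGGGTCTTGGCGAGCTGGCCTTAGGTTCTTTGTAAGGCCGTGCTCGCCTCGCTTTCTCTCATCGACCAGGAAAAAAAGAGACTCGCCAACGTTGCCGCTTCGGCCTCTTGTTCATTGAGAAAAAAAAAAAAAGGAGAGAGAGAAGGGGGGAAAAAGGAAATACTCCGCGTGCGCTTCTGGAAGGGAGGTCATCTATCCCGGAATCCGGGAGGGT
Dusp6, chr10:99262981-99263280, plus strand: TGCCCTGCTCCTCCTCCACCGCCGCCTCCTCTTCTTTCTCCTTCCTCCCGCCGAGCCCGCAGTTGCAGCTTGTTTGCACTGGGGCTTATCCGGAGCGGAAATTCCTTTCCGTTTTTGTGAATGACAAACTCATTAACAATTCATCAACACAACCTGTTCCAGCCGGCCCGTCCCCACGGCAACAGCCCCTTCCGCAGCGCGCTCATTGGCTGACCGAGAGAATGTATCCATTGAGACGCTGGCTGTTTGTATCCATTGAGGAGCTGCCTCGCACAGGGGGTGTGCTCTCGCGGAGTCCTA
Il17rd, chr14:27038751-27039050, plus strand: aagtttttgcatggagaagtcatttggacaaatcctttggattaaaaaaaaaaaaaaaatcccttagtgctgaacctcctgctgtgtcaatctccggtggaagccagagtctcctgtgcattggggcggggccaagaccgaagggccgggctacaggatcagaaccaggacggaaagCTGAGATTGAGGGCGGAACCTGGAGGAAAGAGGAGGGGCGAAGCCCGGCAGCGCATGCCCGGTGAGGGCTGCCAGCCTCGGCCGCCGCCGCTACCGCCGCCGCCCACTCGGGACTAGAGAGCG
Etv5 at its outer start, chr16:22439521-22439820, minus strand: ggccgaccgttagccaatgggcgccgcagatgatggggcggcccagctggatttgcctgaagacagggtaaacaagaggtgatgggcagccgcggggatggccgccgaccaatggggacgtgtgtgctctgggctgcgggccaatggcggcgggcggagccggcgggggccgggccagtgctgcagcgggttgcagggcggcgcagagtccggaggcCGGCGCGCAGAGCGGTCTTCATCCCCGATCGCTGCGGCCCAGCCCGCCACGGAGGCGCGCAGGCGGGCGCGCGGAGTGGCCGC
Etv5 at its inner start, chr16:22438319-22438618, minus strand: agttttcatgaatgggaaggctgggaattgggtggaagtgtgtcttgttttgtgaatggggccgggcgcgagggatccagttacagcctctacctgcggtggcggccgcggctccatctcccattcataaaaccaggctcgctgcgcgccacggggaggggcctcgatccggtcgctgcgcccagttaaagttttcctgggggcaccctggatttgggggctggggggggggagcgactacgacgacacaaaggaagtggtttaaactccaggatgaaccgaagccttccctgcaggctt

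At the outer Etv5 start 83 of the 300 bases were inside a peak in all 8 libraries. Null 4_C2 replicate 2 covered only those 83 bases, fx/fx 4_1 replicate 2 covered 286, and the other 6 libraries covered all 300. At the inner Etv5 start null 4_C2 replicate 1 covered 121 bases, null 4_C2 replicate 2 covered 0, fx/fx 4_1 replicate 2 covered 286, and the other 5 libraries covered all 300. At Il17rd null 4_C2 replicate 1 covered 123 bases, fx/fx 4_1 replicate 2 covered 134, and the other 6 libraries covered the whole stretch. The libraries with a partly covered promoter were thus all from pair 4, of both genotypes.

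The 8 listed promoters of the 7 genes had a GC content of 57.0% to 74.0% and a ratio of observed to expected CpG of 0.701 to 1.033, against medians of 56.3% and 0.567 over 21262 listed promoters. Short motifs were searched on both strands. The Sp/Klf motif GGGCGG was in 5 of the 8 promoters (Spry1, Spred1, Spred2, Il17rd and the outer start of Etv5) and in 46.2% of all promoters. None of the 8 held the E-box CACGTG (7.84% of all promoters) or the ETS motifs CCGGAAGT (5.15%) and CAGGAAGT (3.24%). No other ETS forms were searched, so whether these promoters lack an ETS site was not tested. Also absent were the cyclic AMP response element TGACGTCA (2.23%) and the TATA box TATAAA (12.6%). TGAATGAA (1.11%) and TGAATGGA (1.05%), the only forms of the Capicua motif searched, were in none of the 8. Its other forms were not searched, so whether these promoters lack a Capicua site was not tested. The ETS motifs share their last 6 bases and the searched Capicua forms their first 6.

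The deposited lists give positions only, so the measure of H3K9ac is whether a peak is present and how many base pairs it covers, not how high it is, and the sequencing depth is unknown. Lists of the null clones held 12041 to 18932 peaks and those of the fx/fx clones 13260 to 20809. Lists of pair 6 held 17849 to 20809 peaks and those of pair 4 held 12041 to 15315. Null 4_C2 replicate 2 was the shortest list. Over the 10171 merged regions present in all 8 lists, the median log2 covered length was lower by 0.14 in null libraries (log2 difference of -0.14, null minus fx/fx) and higher by 0.26 in pair 6 than in pair 4, and the log2 differences below are relative to these medians unless stated. Lists were also cut to equal length, and the main changes from this are given beside their results. The part of depth in the results was not tested. A peak lay at an end of Kat2a in 4 of 4 null and 4 of 4 fx/fx libraries, which does not check the deletion. Of the fixed marker lists, 2 of 6 epiblast genes, 0 of 8 mesendoderm genes, 0 of 4 neural genes and 0 of 5 fibroblast genes had a peak at a gene end in all 8 libraries, and 6, 8, 4 and 4 had one in at least 1 library. Of these 23 markers, 16 had a peak in fewer null than fx/fx libraries (Eomes in 2 null and 4 fx/fx, Pou5f1 and Nanog each in 3 null and 4 fx/fx) and 1, Gata4, in more (1 null and 0 fx/fx), against 16.3% and 5.19% of the 13618 genes with a peak at a gene end in any library. That background includes genes with a peak in all 8 libraries, which cannot differ between genotypes. Of the markers only Sox2 and Dnmt3b were such genes, and Col3a1 had no peak in any library. The shares are therefore not of like genes, and the share among genes of variable presence was not computed. The part of cell types in the results was not tested. In bulk chromatin, fewer cells carrying the mark and less mark per cell cannot be told apart.

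H3K9ac peaks were a shared feature of these promoters. A peak lay within 1 kb of the start in all 8 libraries at 9 of the 10 genes, against 44.3% of protein-coding genes (9689 of 21883). For Spry4, Dusp4 and Etv4, whose strand the tables used here do not give, a peak at either gene end counted, and the same rule was used for other genes without a strand. The exception was Spry4, with a peak in 7 libraries and none in null 4_C2 replicate 2. With lists cut to equal length the count was 8 of the 10, as Il17rd then also lacked a start peak. The feedback inhibitors Spry2, Dusp4 and Dusp6 had the broadest regions, with mean covered lengths over the 8 libraries of 6433, 6270 and 5304 bp, broader than 98.9%, 98.8% and 97.6% of the 10171 shared regions, whose median was 2302 bp. Etv4 had the narrowest at 1871 bp, broader than 28.2% of them.

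**Figure D1:**
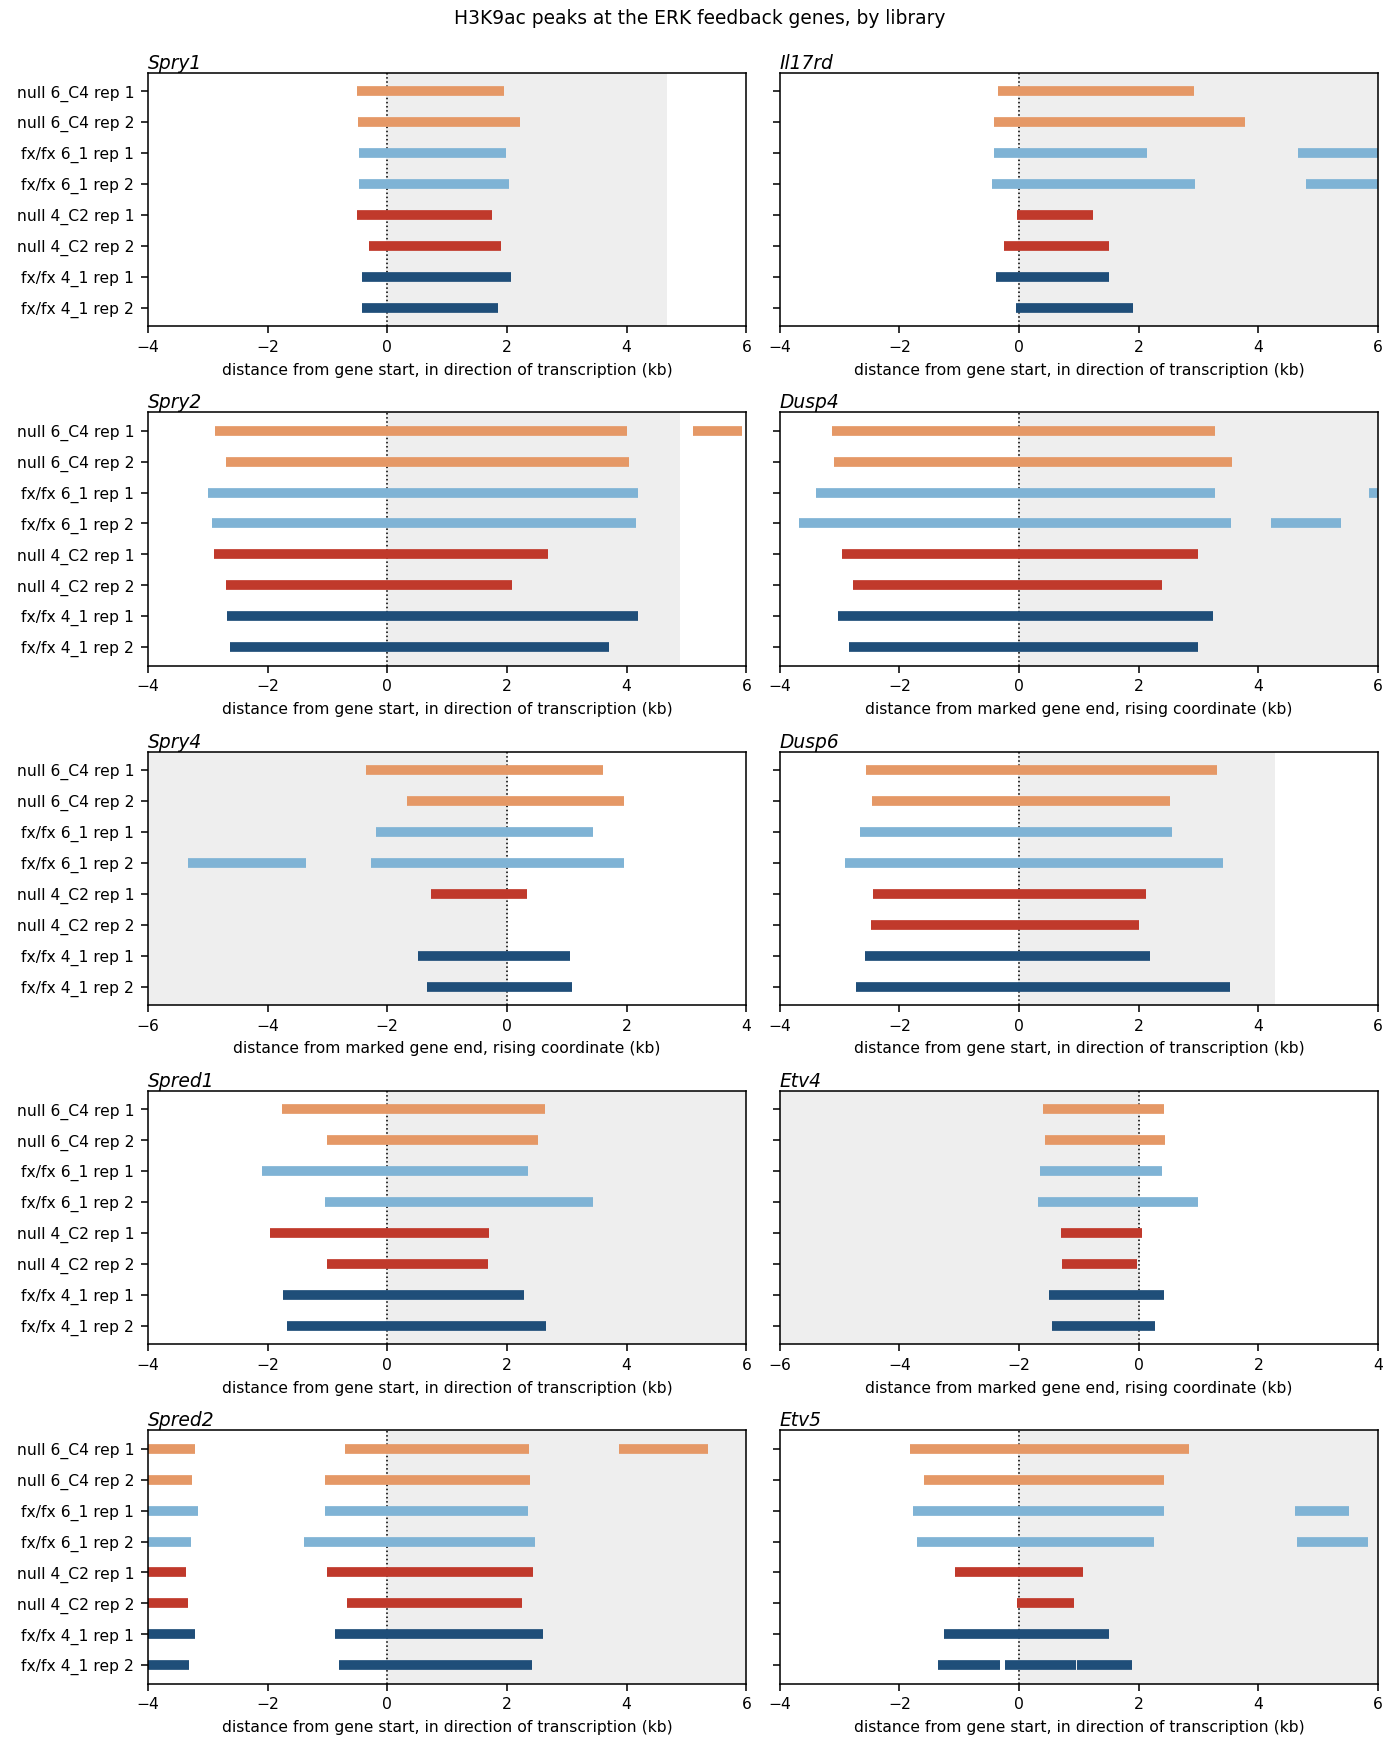
H3K9ac peaks around the start (dotted line; the peak-bearing gene end where no strand was listed) of each of the 10 genes, with distance along the gene in kb on the horizontal axis, one row per library and null libraries above fx/fx libraries in each isolate pair. Spry2, Dusp4 and Dusp6 carry broad peaks in every library, Spry4 lacks a peak in null 4_C2 replicate 2, and the Etv5 peak is longer in pair 6 than in pair 4.

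Among the Sprouty genes, Spry2 carried the broadest region (GRCm38.p6 chr14:105892626-105899819, over a gene at 105891947-105896819 on the minus strand). Spry2 covered 5578 and 4776 bp in null 4_C2 and 6886 and 6732 bp in null 6_C4, against 6874 and 6331 bp in fx/fx 4_1 and 7191 and 7095 bp in fx/fx 6_1. The null libraries were lower within each pair, but null 6_C4 lay above fx/fx 4_1 replicate 2, so the genotypes overlapped. Among all shared regions 41.7% were lower in null in pair 6. Relative to each library's median, both null 6_C4 libraries were higher than both fx/fx 6_1 libraries at Spry2 (log2 of 1.52 and 1.51 against 1.50 and 1.42). A second peak, at the far end of the gene, brought the summed length in null 6_C4 replicate 1 to 7698 bp, the highest of the 8. At Spry2 the pair 4 difference lay on the gene side of the start: the peak reached 2683 and 2076 bp into the gene in null 4_C2 and 4007 and 4034 bp in null 6_C4, against 4193 and 3702 bp in fx/fx 4_1 and 4190 and 4161 bp in fx/fx 6_1. Upstream of the Spry2 start null libraries reached 2697 to 2894 bp, fx/fx libraries 2628 to 3000 bp, which overlapped.

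Spry1, another Sprouty gene (chr3:37639947-37644599, plus strand), had a region of near-median width that varied little between libraries. It covered 2261 and 2200 bp in null 4_C2 and 2472 and 2705 bp in null 6_C4, against 2490 and 2268 bp in fx/fx 4_1 and 2461 and 2506 bp in fx/fx 6_1. Null libraries averaged 2410 ± 229 bp, fx/fx libraries 2431 ± 110 bp (SD, n = 4 each), a gap smaller than either SD.

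Spry4 (chr18:38586247-38601347) was the one gene whose peak was missing from a list. It covered 1602 and 0 bp in null 4_C2 and 3967 and 3633 bp in null 6_C4, against 2545 and 2417 bp in fx/fx 4_1 and 3624 and 4229 bp in fx/fx 6_1. Both null 4_C2 libraries were below both fx/fx 4_1 libraries, while those of pair 6 overlapped. Null libraries averaged a summed peak length of 2301 ± 1856 bp, fx/fx libraries 3204 ± 872 bp (SD, n = 4 each), a difference of -903 bp with p = 0.457 in a two-sided exact permutation test over 70 splits and 0.167 when libraries were permuted within pairs. The smallest p these designs allow is 0.0286 and 0.0556. Without null 4_C2 replicate 2 the difference was -136 bp. This peak also lies at Arhgap26, a gene 270 bp away, and cannot be assigned to either. Arhgap26 had the same lengths in every library (Pearson r = 1 over 8 libraries). Ina and Nt5c2, both on chromosome 19, followed with an equal r of 0.994, out of 705 genes with peaks in the same 7 libraries. Whether Ina and Nt5c2 share a single peak was not checked. Depth and list length are shared by all of these points.

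Of the Spred genes, Spred1 (chr2:117121071-117182279, plus strand) covered 3659 and 2681 bp in null 4_C2 and 4404 and 3517 bp in null 6_C4, against 4033 and 4325 bp in fx/fx 4_1 and 4460 and 4485 bp in fx/fx 6_1. Null libraries were lower within each pair, and over all 8 the genotypes overlapped through null 6_C4 replicate 1 alone. Null libraries averaged 3565 ± 706 bp, fx/fx libraries 4326 ± 207 bp (SD, n = 4 each). The exact permutation p was 0.0857, or 0.0556 within pairs, which is the smallest that permuting within pairs allows. These lengths are not centred, and the share of all genes at this smallest value is not given here. Of all shared regions, 32.4% were lower in null in pair 4 and 41.7% in pair 6. After centring, Spred1 was lower in null in pair 4 and overlapped in pair 6. Spred2 (chr11:19924442-20024026, plus strand) covered 3444 and 2926 bp in null 4_C2 and 3075 and 3427 bp in null 6_C4, against 3463 and 3239 bp in fx/fx 4_1 and 3389 and 3852 bp in fx/fx 6_1. These ranges overlapped in both pairs. A further peak upstream of the Spred2 start was present in all 8 libraries.

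Il17rd (chr14:27038964-27107286, plus strand) differed more between the isolate pairs than between the genotypes. It covered 1265 and 1749 bp in null 4_C2 and 3289 and 4204 bp in null 6_C4, against 1891 and 1959 bp in fx/fx 4_1 and 2550 and 3384 bp in fx/fx 6_1. In pair 4 the null libraries were below the fx/fx libraries, and in pair 6 they overlapped with a higher null mean. Upstream of the start the Il17rd peak reached 36 to 422 bp in null clones, against 47 to 446 bp in fx/fx clones. Most of it lay within the gene, where it reached 1228 to 3781 bp in null clones, against 1497 to 2937 bp in fx/fx clones.

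The phosphatase genes had broad regions in every library. Dusp4 (chr8:34807610-34819894) covered 5959 and 5168 bp in null 4_C2 and 6402 and 6645 bp in null 6_C4, against 6264 and 5833 bp in fx/fx 4_1 and 6661 and 7227 bp in fx/fx 6_1. Null libraries were below fx/fx libraries in pair 6 and overlapped them in pair 4. In null 4_C2 replicate 2 the Dusp4 region was split into a pair of peaks, only one of which, of 3616 bp, lay within 1 kb of the gene end. Dusp6 (chr10:99263231-99267489, plus strand), a phosphatase for ERK, covered 4561 and 4485 bp in null 4_C2 and 5862 and 4980 bp in null 6_C4, against 4770 and 6250 bp in fx/fx 4_1 and 5219 and 6308 bp in fx/fx 6_1. Null libraries averaged 4972 ± 632 bp, fx/fx libraries 5637 ± 764 bp (SD, n = 4 each), and the replicates of fx/fx 4_1 lay farther apart than these means. In 3 libraries the Dusp6 peak came within 1 kb of the far end of the gene, which overlaps a listed long non-coding RNA, Gm34921 (chr10:99266864-99270899), by 626 bp.

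The upstream side of the Dusp6 peak, singled out after its values were seen, was the one edge among those measured that separated the genotypes. It reached 2436 and 2475 bp upstream in null 4_C2 and 2557 and 2465 bp in null 6_C4, against 2581 and 2728 bp in fx/fx 4_1 and 2659 and 2905 bp in fx/fx 6_1. The highest null value was 24 bp below the lowest fx/fx value. Over 7828 genes with a strand and a start peak in all 8 libraries, the upstream reach was lower in null without overlap at 2.11% and higher at 0.153%, and the downstream reach was lower at 2.96% and higher at 0.141%. Of the 7 genes measured, 1 was lower upstream and 0 downstream.

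At both ETS factor genes the null 4_C2 libraries lay below the fx/fx 4_1 libraries. Etv4 (chr11:101769747-101785310) covered 1353 and 1258 bp in null 4_C2 and 2016 and 1994 bp in null 6_C4, against 1932 and 1713 bp in fx/fx 4_1 and 2037 and 2664 bp in fx/fx 6_1. Null libraries were lower within each pair. The exact permutation p for summed peak length at Etv4 was 0.229, or 0.0556 within pairs, the same floor value as at Spred1. After centring, Etv4 too was lower in null in pair 4 and overlapped in pair 6. A listed long non-coding RNA, Gm39392, lies 11 bp from Etv4, and the peak cannot be assigned to either. Etv5 (chr16:22381313-22439570, minus strand) covered 2137 and 958 bp in null 4_C2 and 4670 and 3998 bp in null 6_C4, against 2760 and 3146 bp in fx/fx 4_1 and 4194 and 3947 bp in fx/fx 6_1. Null 4_C2 was lowest, and null 6_C4 overlapped fx/fx 6_1. In null 4_C2 replicate 2 the Etv5 peak reached 33 bp upstream and 924 bp downstream of the outer start, and in null 4_C2 replicate 1 it reached 1064 and 1072 bp in those directions. The Etv5 region of fx/fx 4_1 replicate 2 was made of 3 peaks.

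**Figure D2:**
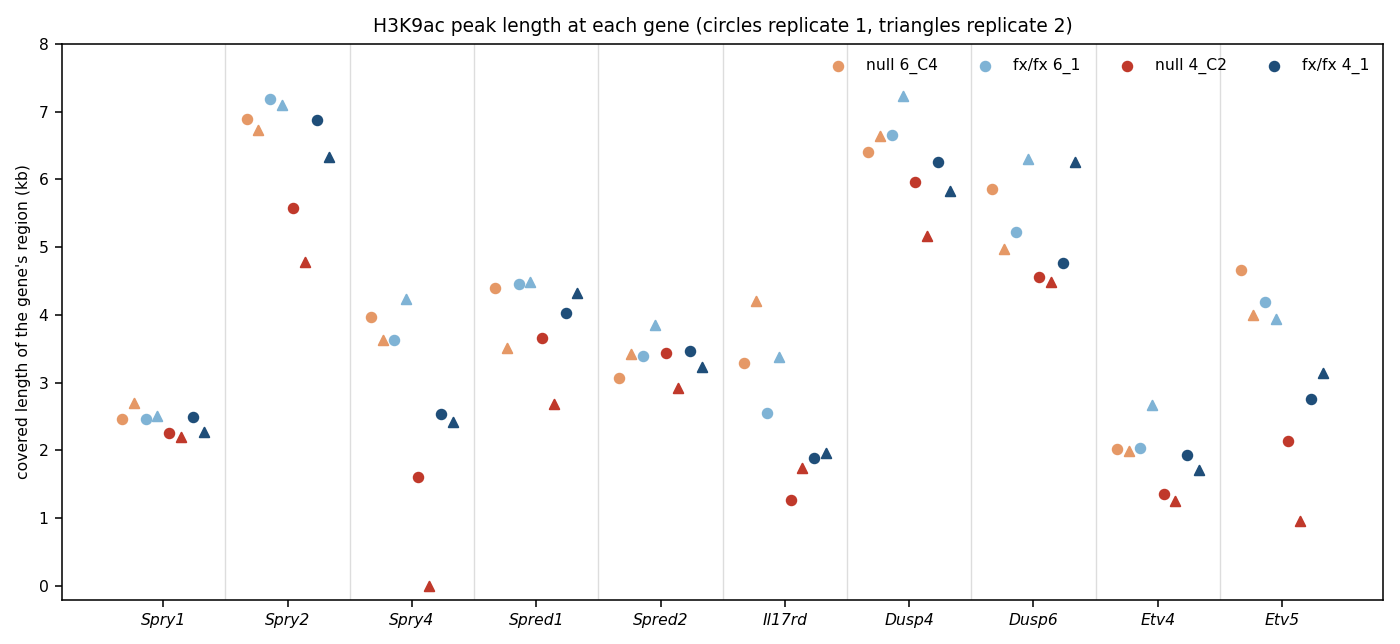
Base pairs covered by H3K9ac peaks in the region at each gene (vertical axis, kb), one point per library, coloured by clone with null before fx/fx in each isolate pair. Null 4_C2 has the lowest mean of the 4 clones at each of the 10 genes, as at 68.3% of all shared regions. Spry4, Il17rd, Dusp4, Etv4 and Etv5 have all pair 6 libraries above all pair 4 libraries, as do 27.9% of genes by summed peak length.

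With all 8 libraries fitted together and the isolate pair as a term, none of the 9 genes present in every list had a changed region width at an adjusted p of 0.05 (limma, Benjamini-Hochberg over 10171 regions). The background was also 0%: limma called 0 of 10171 regions, with 378 wider and 327 narrower at an unadjusted p under 0.05, of which 0 were among these genes. The log2 differences, null minus fx/fx, were -0.34 ± 0.25 at Etv5, -0.21 ± 0.10 at Etv4, -0.16 ± 0.10 at Spred1, -0.08 ± 0.09 at Spry2 and -0.04 ± 0.12 at Dusp6 (SE, n = 4 each). They were 0.02 ± 0.08 at Spred2, 0.03 ± 0.07 at Dusp4, 0.12 ± 0.09 at Spry1 and 0.12 ± 0.20 at Il17rd. With lists cut to equal length the value at Etv5 was -0.0009, and without null 4_C2 replicate 2 it was -0.05. The cut shortened the Etv5 region only in fx/fx 4_1 replicate 2, from 3146 to 1187 bp. The adjusted p of the 9 differences ranged from 0.722 at Etv4 to 0.969 at Spred2 in limma. The median of the 9 was -0.04, with 5 below 0, against a median of 0.02 over all regions. Spry4, missing from 1 list, could not enter this fit. By summed peak length none of the 10 genes separated the genotypes, where 2.09% of 13618 genes were lower in null without overlap and 0.0441% higher.

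Within the isolate pairs the difference at Etv5 was of opposite sign, as it also was at Spry2, Spred2, Il17rd and Dusp6. In pair 6 the log2 difference at Etv5, null minus fx/fx, was 0.21 ± 0.26 (SE, 2 libraries per clone; adjusted p = 0.999, limma), and in pair 4 it was -0.90 ± 0.26 (unadjusted p = 0.00696, adjusted p = 0.339). The difference between the pairs, pair 6 minus pair 4, was 1.11 ± 0.36 (unadjusted p = 0.0139, adjusted p = 0.672, limma), which did not pass. The pair 4 value depended on single libraries and on list length. It was -1.34 (adjusted p = 0.0337, limma) without null 4_C2 replicate 1, a fit that takes the remaining null 4_C2 library, the one with the shortest peak, to vary like the other clones. It was -0.46 (adjusted p = 0.519) without null 4_C2 replicate 2 and -0.21 (adjusted p = 0.916) with lists cut to equal length, where fx/fx 4_1 replicate 2 kept 1 of its 3 peaks there and 1187 of 3146 bp. The difference between the pairs was 1.56 (adjusted p = 0.113) without null 4_C2 replicate 1, 0.67 (adjusted p = 0.579) without null 4_C2 replicate 2 and 0.42 (adjusted p = 0.928) with equal-length lists. In pair 6 the values ran from -0.09 ± 0.14 at Etv4 to 0.47 ± 0.24 at Il17rd. In pair 4 the other values were -0.33 ± 0.14 at Etv4, -0.27 ± 0.14 at Spred1, -0.23 ± 0.24 at Il17rd, -0.21 ± 0.11 at Spry2, -0.13 ± 0.18 at Dusp6, 0.02 ± 0.11 at Dusp4, 0.05 ± 0.13 at Spry1 and 0.07 ± 0.12 at Spred2. None of the 9 genes was called in pair 6, where limma called 0% of regions (141 wider and 311 narrower at an unadjusted p under 0.05), or in pair 4, where it called 0.0787% (1 wider and 7 narrower). None was called for a difference between the pairs, and of all regions 0% were (281 higher and 396 lower in pair 6 at an unadjusted p under 0.05).

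Covered lengths without centring show how much of this the whole lists share. In pair 4, 8 of the 10 genes had both null libraries below both fx/fx libraries, all but Spred2 and Dusp4, and none above. Of the 9 genes in all lists, 7 were lower, against 32.4% lower and 5.16% higher over all shared regions. In pair 6, 4 genes were lower (Spry2, Spred1, Dusp4 and Etv4) and none higher, against 41.7% and 3.52%. After centring each library on its median, the genes lower in pair 4 were Spry2, Spred1, Etv4 and Etv5 and the gene higher was Spred2, that is 4 and 1 of 9 against 15.5% and 22.6% of all regions. After centring in pair 6, 0 of 9 were lower and 4 were higher (Spry1, Spry2, Il17rd and Etv5), against 14.9% and 21.2%.

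**Figure D3:**
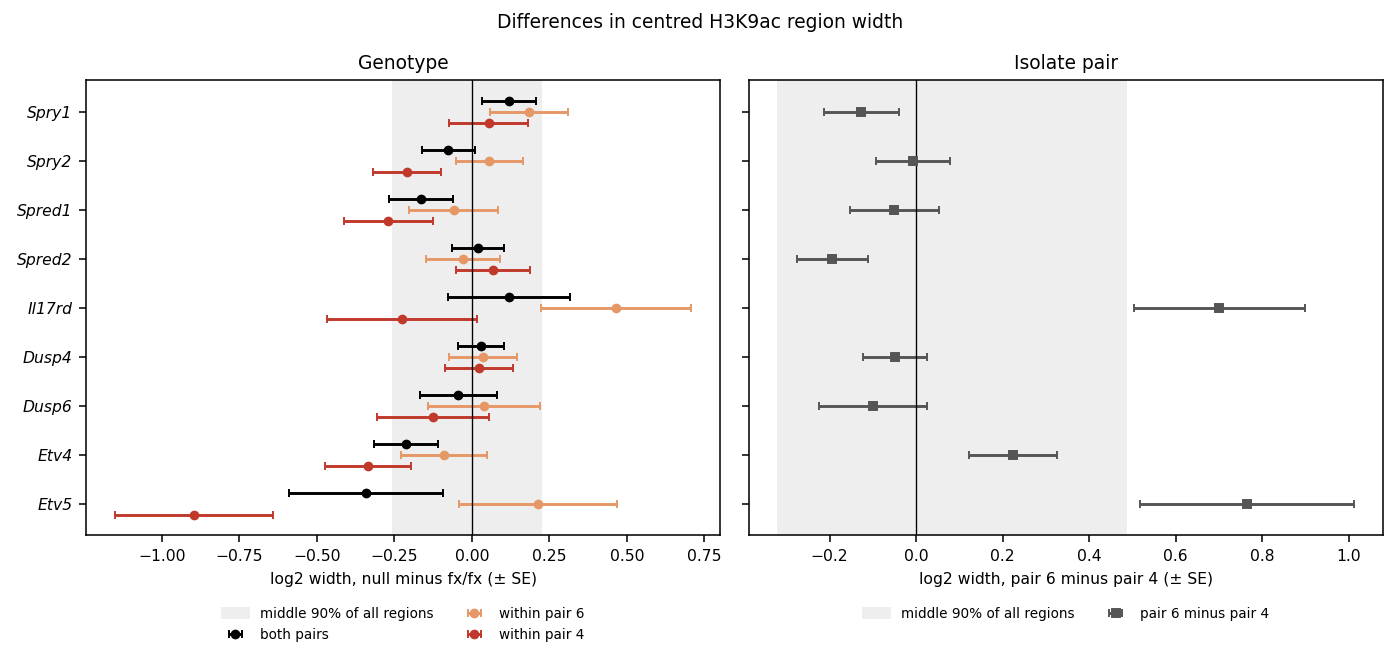
Log2 differences in centred region width (horizontal axis) for the 9 genes present in all 8 lists, with bars of 1 SE. Left, null minus fx/fx over both pairs and within each pair, with Etv5 at 0.21 in pair 6 and -0.90 in pair 4; right, pair 6 minus pair 4, with Il17rd and Etv5 farthest to the right; grey marks the middle 90% of all shared regions.

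Between the isolate pairs, Etv5 and Il17rd had the widest margins. The log2 difference, pair 6 minus pair 4, was 0.77 ± 0.25 at Etv5 (adjusted p = 0.0945, limma, n = 4 libraries per pair) and 0.70 ± 0.20 at Il17rd (adjusted p = 0.0633). The mean covered length was 4202 ± 330 bp in pair 6 and 2250 ± 957 bp in pair 4 at Etv5, and 3357 ± 677 bp in pair 6 and 1716 ± 313 bp in pair 4 at Il17rd (SD, n = 4 each). None of the 9 genes passed, against 4.32% of regions called wider and 2.52% called narrower in pair 6. At an unadjusted limma p under 0.05 there were 3 of the 9, against 1284 regions wider and 1325 narrower of 10171. Etv4 had 0.22 ± 0.10 and Spred2 -0.19 ± 0.08, and the other 5 genes lay between -0.13 and -0.01. The median of the 9 was -0.05, with 6 below 0, against -0.02 over all regions. By summed peak length 5 of the 10 genes (Spry4, Il17rd, Dusp4, Etv4 and Etv5) were higher in all pair 6 than in all pair 4 libraries and 0 lower, against 27.9% and 0.257% of 13618 genes. Without centring, limma called 3 genes wider in pair 6: Il17rd (0.97, adjusted p = 0.00949), Etv4 (0.49, adjusted p = 0.0178) and Etv5 (1.03, adjusted p = 0.0300). With lists cut to equal length it called Etv5 (1.12, adjusted p = 0.0445) among the 8 genes that stayed in every list, which leaves out Il17rd. At Etv5 this cut shortened only a pair 4 library, fx/fx 4_1 replicate 2, from 3146 to 1187 bp. Without null 4_C2 replicate 2, which brought Spry4 into the fit, limma called Spry4 and none of the other 9 (0.68, adjusted p = 0.0474). The values without centring also hold the log2 shift of 0.26 between the lists of the pairs. The share of all regions called under these alternatives is not given here, so the calls cannot be set against it.

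Peaks inside the genes, away from both ends, were almost confined to pair 6 at these 10 genes; the exception was 1 peak of 2199 bp in Spred2 in null 4_C2 replicate 1. Of the 10 genes, 6 had an internal peak in at least 1 library, against 5832 of 19297 genes over 2 kb. In 5 of the 10 there was one in pair 6 and none in pair 4 (Spry4, Il17rd, Dusp4, Etv4 and Etv5), against 2281 of the 19297 (11.8%). This share and those that follow in this paragraph are over all 19297 genes, most of which had no internal peak in any library. Dusp4 and Etv5 had one in all 4 pair 6 libraries and none in pair 4, against 1.23%. No gene of the 10 had one in pair 4 and none in pair 6, against 2.63%. Pair 6 also had the longer peak lists.

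Etv5 carried the most internal H3K9ac. Its internal peaks summed to 6991 and 3448 bp in null 6_C4 and to 10573 and 14945 bp in fx/fx 6_1, in 4 and 2 peaks in null 6_C4 and 7 and 7 peaks in fx/fx 6_1, and to 0 bp in all 4 libraries of pair 4. The null 6_C4 values were below the fx/fx 6_1 values. A pair of Etv5 regions held a peak in all 4 pair 6 libraries, at chr16:22427928-22430915, 8.7 kb from the outer start, and at chr16:22404655-22407855, 31.7 kb from it. At Dusp4 the internal peaks summed to 2658 and 1051 bp in null 6_C4 and to 2752 and 4170 bp in fx/fx 6_1, again lower in null, and the region at chr8:34813460-34817094 held a peak in all 4. Of the 6 genes with an internal peak in pair 6, 2 were lower in null without overlap and 0 higher, against 22.6% and 5.18% of 5325 such genes.

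At Spred2 the internal peaks summed to 3833 and 2655 bp in null 6_C4 and to 6956 and 3481 bp in fx/fx 6_1, which overlapped, and the region at chr11:19986266-19990075, 61.8 kb into the gene, held a peak in all 4 of these libraries. Il17rd had 3188 and 0 bp in null 6_C4 and 2356 and 4372 bp in fx/fx 6_1. Spry4 had 1123 and 0 bp in null 6_C4 and 0 and 3216 bp in fx/fx 6_1, and Etv4 had 1 internal peak, of 1019 bp, in fx/fx 6_1 replicate 1. No internal region of Il17rd, Spry4 or Etv4 held a peak in more than 2 libraries. Spry1, Spry2, Spred1 and Dusp6 had no internal peak in any library; Spry1, Spry2 and Dusp6 are short genes of 4653, 4873 and 4259 bp.

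**Figure D4:**
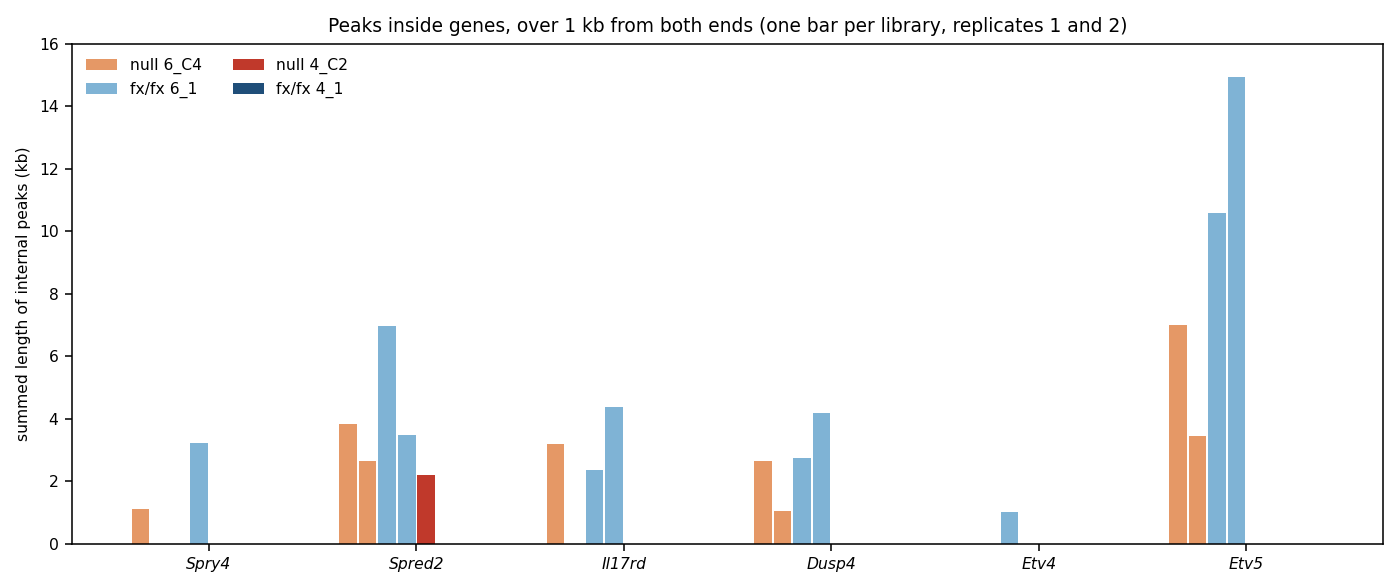
Summed length of H3K9ac peaks inside each gene and away from its ends (vertical axis, kb), one bar per library and null before fx/fx in each pair. Values above 0 are in pair 6, except Spred2 in null 4_C2 replicate 1, and the highest are Etv5 in fx/fx 6_1.

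**Figure D5:**
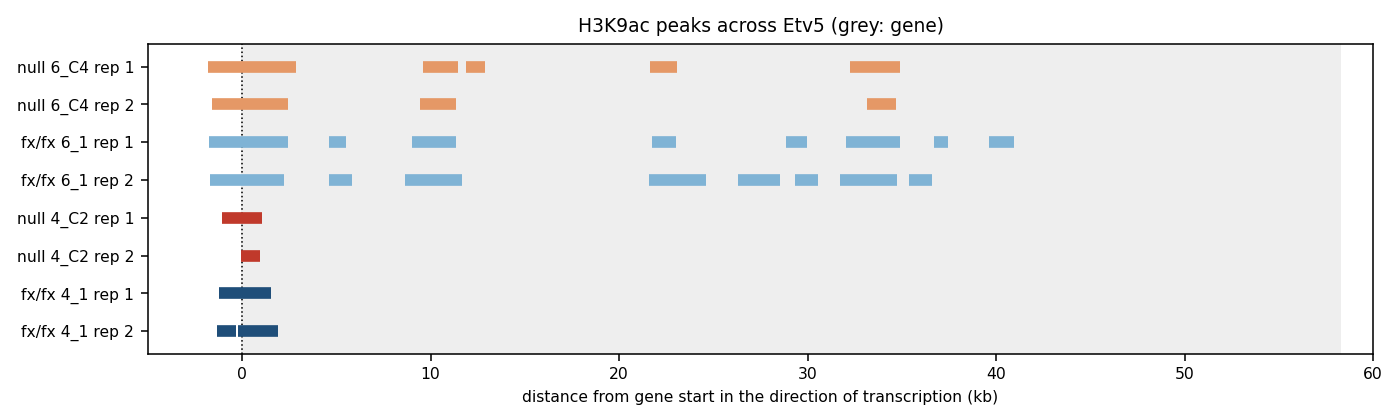
H3K9ac peaks along Etv5, with distance from the outer start in kb on the horizontal axis and one row per library, null above fx/fx in each pair. Peaks inside the gene appear in the 4 pair 6 libraries and in none of pair 4, and they are more numerous in fx/fx 6_1 than in null 6_C4.

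Other genes of the pathway likewise gave no call between the genotypes. Of 12 further Spry, Spred, Dusp and Etv family genes, 8 had a peak at a gene end in all 8 libraries and 2, Spry3 and Dusp16, in none. All 8 were tested and 0 passed, with a median log2 difference, null minus fx/fx, of 0.01 and a range of -0.58 to 0.26. In this list Dusp9 had a peak in 1 null and 2 fx/fx libraries, Spred3 in 3 null and 4 fx/fx libraries, Etv1 had a log2 difference of -0.58 ± 0.31 and Dusp10 of -0.28 ± 0.21 (SE, n = 4 each). Of 16 ligand, receptor and adaptor genes 12 were tested and 0 passed (median 0.05). There Fgf15, a ligand, had a peak in 2 null and 4 fx/fx libraries, the receptor gene Fgfr4 in 1 and 3, the ligand gene Fgf8 in 4 and 3, and the adaptor gene Frs2 had a log2 difference of -0.39 ± 0.22.

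Of 14 Ras, Raf, MEK and ERK genes 12 were tested and 0 passed, with a median log2 difference of 0.06; Araf had a peak in 3 null and 4 fx/fx libraries, and Map2k1, Braf and Map2k2 had log2 differences of 0.16 ± 0.14, 0.14 ± 0.08 and 0.09 ± 0.13. Of 9 other inhibitors of the pathway all 9 were tested and 0 passed, with a median of -0.09 and values of -0.15 ± 0.10 at Pebp1, -0.13 ± 0.21 at Cbl, -0.12 ± 0.08 at Rasa1 and 0.12 ± 0.08 at Cblb. Of 16 genes of the immediate response to growth factors 12 were tested and 0 passed, with a median of -0.03 and 1 at an unadjusted p under 0.05. Egr2 had a peak in 0 null and 1 fx/fx libraries, and Elk1, Elk3 and Myc each in 3 null and 4 fx/fx libraries. Of the 53 genes tested over the 5 lists, limma called 1 region wider in pair 6, in the immediate response list, and 3 narrower, 1 each in the family, Ras to ERK and inhibitor lists, against 4.32% and 2.52% of all regions.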

How the data were processed

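H3K9ac was measured in 8 libraries, 4 null and 4 fx/fx. The authors deposited 1 peak list per library, per the file contents a chromosome, start and end for each peak and no score, height or p-value. The submitters' processing notes name mm10, MACS 1.4.2 and Bowtie 1.1.2. The control library, peak threshold and any filters were not given in the sources used here. Per the labels' protocols, reads were single.

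Peak positions were joined to protein-coding genes of GRCm38.p6, with a peak assigned within 1000 bp of a gene end. Strand came from the promoter table (17491 of 21883 genes). Peaks overlapping by at least 1 bp were merged across lists into regions. Log2 covered length was centred on each library's median over the 10171 regions in all 8 lists and fitted with limma 3.58.1 (R 4.3.3) on genotype and isolate pair, with Benjamini-Hochberg adjustment over all regions at 0.05. An interaction fit gave the changes within each pair. The fit was tested on simulated data. Summed lengths were compared by exact permutation in Python 3.11.15 (NumPy 2.4.6, pandas 2.3.3). The labels describe independent experiments but not how the cultures relate, so p-values measure the spread between libraries, and each genotype has 2 clones.

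The 10 genes and the lists were chosen with earlier results of these data known. All 10 genes are named, and from each list up to 4 genes, ranked by how many more libraries of one genotype held a peak, then by the size of the log2 difference. Alternatives were leaving out each library, joining peaks across gaps of up to 500 bp, lists cut to the same number of widest peaks, no centring, a pseudocount of 100 bp with and without adding regions found in 4 to 7 lists, no isolate pair term, a replicate block, windows of 500 and 2000 bp and an overlap of at least 200 bp. Total H3 and input samples were not used here.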

Additional observations from a re-analysis of the deposited data

How the results depend on the processing

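Peak lists without heights or depths limit every value to presence and length, and a stricter peak threshold could not be tried. None of the genes was called between the genotypes under any of the 15 alternatives, nor for a difference between isolate pairs in the genotype effect under any of 13. Genes called between isolate pairs, 0 as reported, numbered 0 to 1 with a library left out (1 without null 4_C2 replicate 2), 1 with lists of equal length and 3 with no centring. The share of all regions called under these alternatives is not given here. Genes whose summed length separated the genotypes numbered 0 to 1 with a library left out (Spred1 without null 6_C4 replicate 1). The count of genes with a start peak in all libraries was 9 to 10 with a library left out and 8 with lists of equal length, where Il17rd also lacked one.

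Without centring, the log2 difference null minus fx/fx changed sign to -0.017 at Spry1, -0.12 at Spred2, -0.016 at Il17rd and -0.11 at Dusp4, and that of pair 6 minus pair 4 to 0.14 at Spry1, 0.26 at Spry2, 0.21 at Spred1, 0.071 at Spred2, 0.22 at Dusp4 and 0.16 at Dusp6; these differences then hold the shift of the whole lists. With a library left out, the genotype difference ran from -0.0088 to 0.066 at Spred2, -0.027 to 0.33 at Il17rd and -0.12 to 0.067 at Dusp6, and the pair difference from -0.042 to 0.036 at Spry2, -0.13 to 0.0070 at Spred1 and -0.18 to 0.010 at Dusp6. At Etv5 the genotype difference ran from -0.49 to -0.05 with a library left out and was -0.0009 with lists of equal length; within pair 4 it ran from -1.34 (without null 4_C2 replicate 1, the one that passed) to -0.46 (without null 4_C2 replicate 2) and was -0.21 with lists of equal length. The Spry4 difference ran from -1459 to -136 bp.

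Same-numbered libraries of a pair deviated together only weakly (correlation 0.062 in pair 6 and 0.109 in pair 4), so the numbers were not taken as pairing the libraries; with the replicate block 0 genes were called.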
